A study of Mus musculus with 9 samples.

Results

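Nfkbiz, Birc3, Litaf, Steap4 and Casp12 are 5 genes of the TNF and IL-1 response and of cell death control. They were chosen by name, with earlier results of these data known, and were followed through all 9 libraries of the study. They are 5 of the 11148 rows of a table of RPKM (reads per library depth and per kilobase of the gene). The study compared RNA from mouse satellite cells, the stem cells of skeletal muscle, between culture media. The cells came from limb muscle of C57/BL6/DBA mice aged 1 to 3 days, with males and females pooled, and grew on collagen. The F10 medium library was made at P0 (passage 0), and neither the labels nor the files state its serum or FGF, so a difference from it cannot be told apart from one of serum or FGF. T cell medium was 50% F10 medium with 15% serum and 50% medium from T cells, with FGF at 2.5 ng/ml. Cytokine medium was F10 medium with 15% serum, FGF at 2.5 ng/ml, 5 ng/ml of both IL-1α and IL-13, and 10 ng/ml of both TNF-α and IFN-γ. Both of these media were sampled at passages P0, P1, P2 and P15, with 1 library per medium and passage.

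TNF-α and IL-1α bind receptors whose adaptor complexes switch on IκB kinase, which releases the transcription factor NF-κB into the nucleus. Nfkbiz encodes IκBζ, a nuclear IκB protein that NF-κB signalling induces and that helps to switch on a second wave of its targets. Birc3 encodes cIAP2, a ubiquitin ligase recruited to TNF receptor complexes, where it favours NF-κB signalling and restrains cell death. Litaf encodes a membrane protein of endosomes and lysosomes, named after the induction of TNF by lipopolysaccharide. Steap4 encodes a metalloreductase for iron and copper that TNF induces in fat cells. Casp12 encodes caspase-12, a member of the inflammatory caspase group that is associated with the endoplasmic reticulum. In cultured myoblasts NF-κB activity is known for holding back differentiation.

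The promoters of Steap4 and Casp12 are shown because these genes had the largest folds over F10 medium, and that of Birc3 because it had the largest difference between T cell and cytokine medium. They are RefSeq sequences on the mouse build GRCm38.p6, read 5′ to 3′ on the strand of the gene, from -250 to -51 bases of the gene's start. Capitals mark matches on either strand to the NF-κB consensus, the ISRE core, the AP-1 element (TGANTCA) or the TATA box (TATAAA). The stretches are chr5:7960222-7960421 (plus strand) for Steap4, chr9:5345226-5345425 (plus strand) for Casp12 and chr9:7873221-7873420 (minus strand) for Birc3.
Steap4: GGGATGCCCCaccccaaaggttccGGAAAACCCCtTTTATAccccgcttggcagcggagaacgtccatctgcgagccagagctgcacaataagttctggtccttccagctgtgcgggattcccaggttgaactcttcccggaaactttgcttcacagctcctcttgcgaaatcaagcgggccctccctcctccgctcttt
Casp12: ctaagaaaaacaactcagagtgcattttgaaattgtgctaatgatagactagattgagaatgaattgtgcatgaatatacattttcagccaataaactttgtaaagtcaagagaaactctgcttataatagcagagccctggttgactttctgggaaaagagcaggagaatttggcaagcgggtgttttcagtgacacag
Birc3: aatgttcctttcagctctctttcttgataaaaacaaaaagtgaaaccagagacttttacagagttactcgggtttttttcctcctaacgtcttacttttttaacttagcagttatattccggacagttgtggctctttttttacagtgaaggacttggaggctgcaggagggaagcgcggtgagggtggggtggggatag

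The Steap4 stretch held 2 matches to the NF-κB consensus, at -250 to -241 and -226 to -217. It also held a TATA box on the minus strand at -215 to -210. None of the 4 motifs was found in the 250 bases before the start of Casp12, Birc3 or Litaf. Among 32851 promoters of the same length, 7.25% held the NF-κB consensus, 2.98% the ISRE core, 6.75% the AP-1 element and 12.4% the TATA box. Matches between the motifs did not overlap. The RefSeq table gave a promoter for 4 of the 5 genes, all but Nfkbiz, and its Litaf start lies inside the GENCODE gene. A match describes letters in the window, and no match says only that those letters are absent there.

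By the GENCODE annotation on mm10, Nfkbiz lies on chromosome 16 at 55811375 to 55838899, minus strand, with 15 exon blocks. Litaf lies on the same chromosome at 10959275 to 11066157, minus strand, with 7. Birc3 (chromosome 9, 7848699 to 7873186, minus strand) and Casp12 (chromosome 9, 5345430 to 5373032, plus strand) each have 11 exon blocks. Steap4 lies on chromosome 5 at 7960457 to 7982213, plus strand, with 5. The reads counted are those assigned to the whole gene model, so no exon, UTR or isoform is told apart.

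Run 1 of the libraries held 13.0 to 18.2 M reads, as recovered from the value of 1 read. Row names could be checked only in part: the housekeeping rows Actb and Hprt averaged 0.00264 and 0.00274 RPKM over the 9 libraries. Names were used only from a chromosome's start to the farthest of 58 genes named in earlier results of these data, where 67.0% of 751 rows reached 1 RPKM against 26.0% of the other 10397. The 5 genes are among those 58, so they lie in such regions by construction. In these regions 67.6% of 37 rows on chromosome 5, 62.5% of 24 on chromosome 9 and 65.2% of 462 on chromosome 16 reached 1 RPKM. These shares include the listed genes and do not check the name of any single row. A small offset between row and gene on chromosome 16 was not tested, and one of 200 bases would leave 60.3% of the Nfkbiz exons and 77.8% of the Litaf exons inside their rows. None of 10 satellite cell, 8 T cell or 7 fibroblast markers had a usable name, so the labelled cell type could not be checked against them. Among 7 macrophage markers only Cd80 was usable, at 5.20 RPKM in F10 medium, 1.05 in T cell and 1.07 in cytokine medium at P0, and 0.624 to 4.10 in the other libraries, so it was highest where Nfkbiz, Litaf, Steap4 and Casp12 were lowest. Muscle differentiation had 4 usable markers of 10 (Actn3, Srl, Myom2 and Pygm), none at 0, whose summed level was 67.0 RPKM in F10 medium, 26.5 to 224.5 in T cell medium and 10.98 to 27.1 in cytokine medium. All 4 fell in cytokine against T cell medium by limma, with log2 differences of -2.29 to -1.90 and a highest adjusted p of 0.0398. Over the 3503 rows tested, 5.00% were lower by the same test. The lists were chosen with earlier results of these data known, so this count is a description. These 4 markers no longer passed without both P0, both P1 or both P2 libraries. The part of differentiation, or of cells with Cd80, in the results below was not tested.

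**Figure D1:**
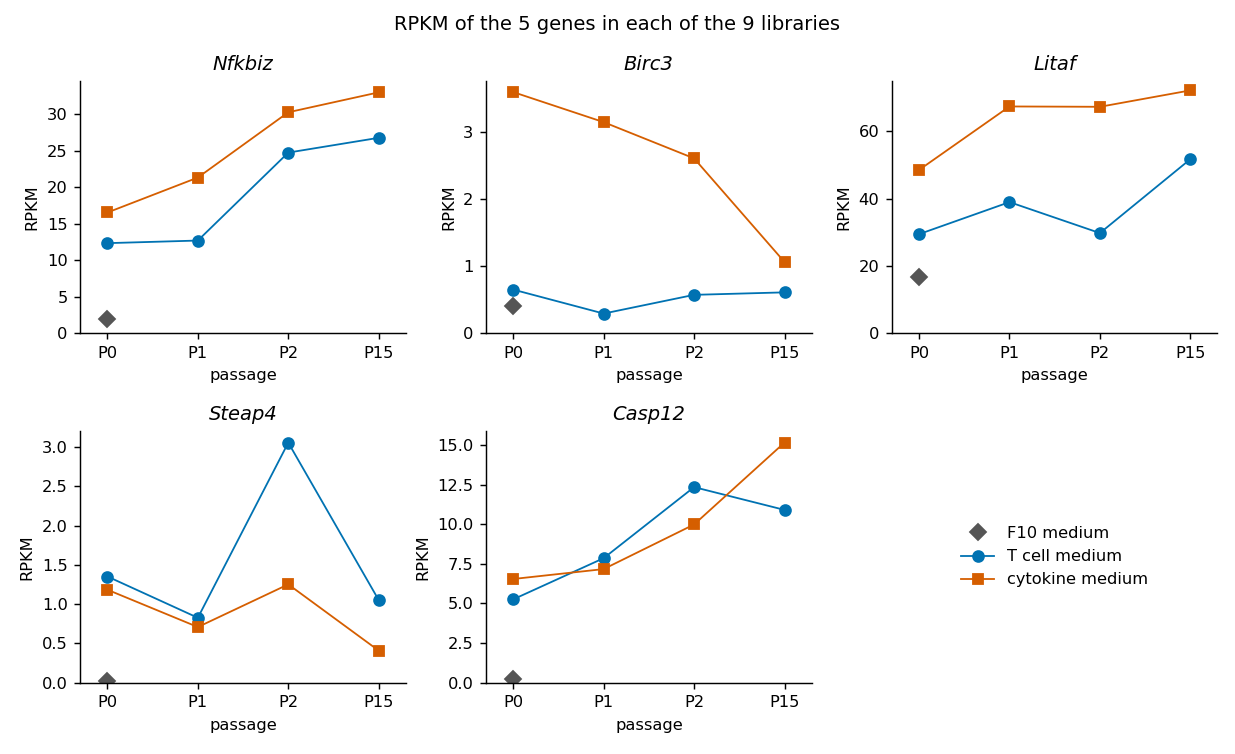
RPKM (y axis) of Nfkbiz, Birc3, Litaf, Steap4 and Casp12 in the 9 libraries by passage (x axis, categories not drawn to time); points are single libraries and lines join a medium's passages. The F10 library is the lowest point for Nfkbiz, Litaf, Steap4 and Casp12, and the cytokine line lies above the T cell line at all 4 passages for Nfkbiz, Birc3 and Litaf.

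At P0, cells in T cell medium and in cytokine medium were compared with cells in F10 medium, to ask how the media change these genes in the first culture. Nfkbiz was several-fold higher in both media. Casp12 was 23.7-fold higher in T cell and 29.5-fold higher in cytokine medium, over 11 reads in F10 medium. Steap4 had 1 read in F10 medium and over 50 in each of the other media. Birc3 was far higher in cytokine medium and close to its F10 level in T cell medium. Litaf was higher in both by less than 3-fold. Each comparison rests on 1 library per side, both share the F10 library, and there is no test. Intervals are 95% and cover counting error only, from the mean of both runs taken as reads at run 1 depth. In bulk RNA a change in the share of cells of 1 kind and a change in RNA per cell cannot be told apart.

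Nfkbiz was at 1.98 RPKM in F10 medium (146 reads in run 1), 12.3 in T cell medium (834 reads) and 16.5 in cytokine medium (1244 reads). The fold over F10 medium was 6.23 in T cell medium (5.22 to 7.48) and 8.36 in cytokine medium (7.04 to 9.99). Both media libraries were high for the nuclear IκB gene, with the cytokine library above the T cell library, and the F10 library was low.

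Birc3, the cIAP2 gene, was at 0.402 RPKM in F10 medium (30 reads), 0.648 in T cell medium (39 reads) and 3.59 in cytokine medium (271 reads). Its fold was 1.61 in T cell medium, with an interval that includes 1 (0.990 to 2.67), and 8.95 in cytokine medium (6.12 to 13.5). For Birc3 only the cytokine library stood apart from F10 beyond counting error.

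Litaf was the highest of the 5 at P0 per length, at 16.6 RPKM in F10 medium, 29.4 in T cell medium and 48.5 in cytokine medium. Its folds of 1.78 (1.61 to 1.96) and 2.93 (2.68 to 3.21) were the smallest of the 5 in cytokine medium and the second smallest in T cell medium. The gene model length behind the deposited Litaf values is 0.512 of the GENCODE exon length, so its level relative to the other genes depends on the annotation.

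Steap4 was at 0.0225 RPKM in F10 medium, which is 1 read in run 1, against 1.35 in T cell medium (57 reads) and 1.18 in cytokine medium (56 reads). The ratio was 60.0 in T cell medium (10.7 to 2110) and 52.5 in cytokine medium (9.32 to 1848). The width of both intervals comes from the single F10 read.

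Casp12 was at 0.222 RPKM in F10 medium (11 reads), 5.26 in T cell medium (263 reads) and 6.54 in cytokine medium (363 reads). The folds were 23.7 (13.5 to 45.7) and 29.5 (16.9 to 56.6). Per length the caspase-12 gene was the second lowest of the 5 in F10 medium and lay between Birc3 and Nfkbiz in the other media. On the log2(RPKM + 1) scale 3 of the 5 genes were higher by at least 1 in T cell medium, where 1.51% of 3503 rows were, and 5 of 5 in cytokine medium, where 2.14% were. Birc3, Steap4 and Casp12 were under 1 RPKM in F10 medium and passed the filter only through other libraries, so these counts are a description. None of the 5 was lower by that much, against 0.514% of rows in T cell medium and 1.57% in cytokine medium.

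**Figure D2:**
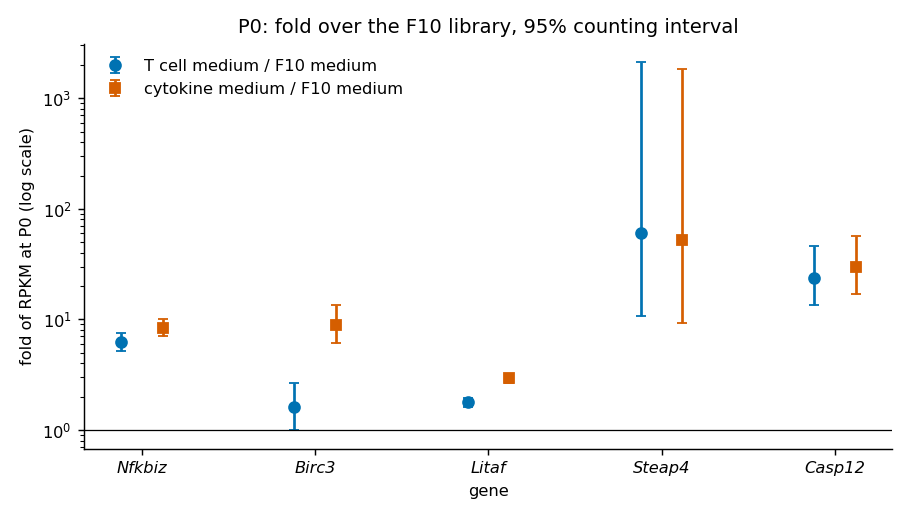
Fold of RPKM at P0 over the F10 library (y axis, log scale) for each gene (x axis) in T cell and cytokine medium; points are 1 library over 1 library and bars are 95% counting intervals. The interval of Birc3 in T cell medium reaches 1 (0.990 to 2.67), and the intervals of Steap4 span over 2 powers of 10 because F10 medium gave 1 read.

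Cytokine medium was then compared with T cell medium over the 4 passages, with each passage pairing 1 library of each medium. By limma on log2(RPKM + 1), Birc3, Litaf and Nfkbiz rose in cytokine medium, while Steap4 and Casp12 did not pass. That is 3 of 5 higher and 0 lower, against 4.85% higher and 5.00% lower among the 3503 rows tested. The median difference of the 5 genes was 0.42, and that of all rows was 0.02. All 5 genes passed the filter on low values, but Birc3 passed only through the cytokine libraries, with every T cell and F10 library under 1 RPKM. The filter thus favours a higher call for Birc3, while Litaf and Nfkbiz were above 1 RPKM in all 9 libraries. The 5 genes were chosen with earlier results of these data known, so the count of 3 is a description. Residual spread comes from passages, not from repeated cultures, and an adjusted p under 0.05 was called.

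Birc3 was at 0.648, 0.291, 0.570 and 0.607 RPKM in T cell medium, in the order P0, P1, P2, P15. In cytokine medium it was at 3.59, 3.15, 2.61 and 1.06 RPKM at the same passages. The media did not overlap, and the P15 cytokine library was the lowest of its 4. Means over the passages were 0.529 ± 0.162 RPKM (SD, n = 4 passages) in T cell medium and 2.60 ± 1.10 in cytokine medium. The log2 difference was 1.18 ± 0.206 (SE, 95% interval 0.69 to 1.67, adjusted p = 0.0303, higher at 4 of 4 passages). Because the filter kept Birc3 only through its cytokine libraries, this p is read as a description, and with no filter it was 0.245.

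Litaf was at 29.4, 39.0, 29.8 and 51.7 RPKM in T cell medium and at 48.5, 67.4, 67.3 and 72.2 in cytokine medium. The P15 T cell library lay above the P0 cytokine library, so the ranges overlapped, yet at every passage cytokine medium was higher. Means were 37.5 ± 10.5 and 63.9 ± 10.5 RPKM (SD, n = 4 passages). The log2 difference was 0.78 ± 0.116 (SE, 0.50 to 1.05, adjusted p = 0.0239).

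Nfkbiz was at 12.3, 12.7, 24.7 and 26.8 RPKM in T cell medium and at 16.5, 21.3, 30.3 and 33.0 in cytokine medium. The ranges of the media overlapped widely, and within passages cytokine medium was higher at 4 of 4. Means were 19.1 ± 7.69 and 25.3 ± 7.67 RPKM (SD, n = 4 passages). The log2 difference was 0.42 ± 0.0927 (SE, 0.20 to 0.64, adjusted p = 0.0434), the smallest of the 3 that passed.

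The 3 calls ended when both P0, both P1 or both P2 libraries were left out, with adjusted p of 0.126, 0.149 and 0.0869 for Birc3, 0.113, 0.136 and 0.0525 for Litaf, and 0.161, 0.149 and 0.0864 for Nfkbiz. They held without both P15 libraries (0.0015, 0.0081 and 0.0386), and all 3 ended with no filter on low values (0.245, 0.217 and 0.245). Without the passage term Birc3 passed, and Litaf (0.0761) and Nfkbiz (0.456) did not, and quantile normalization ended the Nfkbiz call (0.36, adjusted p = 0.0604).

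Steap4 was at 1.35, 0.827, 3.06 and 1.05 RPKM in T cell medium and at 1.18, 0.709, 1.25 and 0.409 in cytokine medium. The P2 T cell library stood highest, and at P2 the summed muscle differentiation markers were also at their highest, 224.5 RPKM. The metalloreductase gene was lower in cytokine medium at 4 of 4 passages, by -0.40 ± 0.139 (SE, -0.73 to -0.07), which did not pass after adjustment (adjusted p = 0.11).

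Casp12 was at 5.26, 7.86, 12.3 and 10.9 RPKM in T cell medium and at 6.54, 7.17, 9.98 and 15.1 in cytokine medium. Cytokine medium was higher at P0 and P15 and lower at P1 and P2. The difference of 0.08 ± 0.128 (SE, -0.23 to 0.38, adjusted p = 0.712) turned to -0.04 without both P15 libraries. Its interval leaves room for up to 0.38 on the log2 scale in favour of cytokine medium.

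At single passages the fold of cytokine over T cell medium has no test. For Birc3 it was 5.54 at P0 (4.01 to 7.82), 10.8 at P1 (7.08 to 17.3), 4.57 at P2 (3.31 to 6.42) and 1.75 at P15 (1.19 to 2.58). The P15 interval lies below those of the earlier passages. For Litaf it was 1.65, 1.73, 2.26 and 1.40, and for Nfkbiz 1.34, 1.68, 1.22 and 1.23, all with intervals above 1. Casp12 had folds of 1.24 (1.06 to 1.46), 0.912 (0.804 to 1.04), 0.809 (0.726 to 0.901) and 1.39 (1.25 to 1.54), so that its P2 interval lay below those of P0 and P15. Steap4 was at 0.875 (0.594 to 1.29), 0.857 (0.542 to 1.35), 0.410 (0.300 to 0.553) and 0.389 (0.209 to 0.686), with intervals below 1 at P2 and P15.

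**Figure D3:**
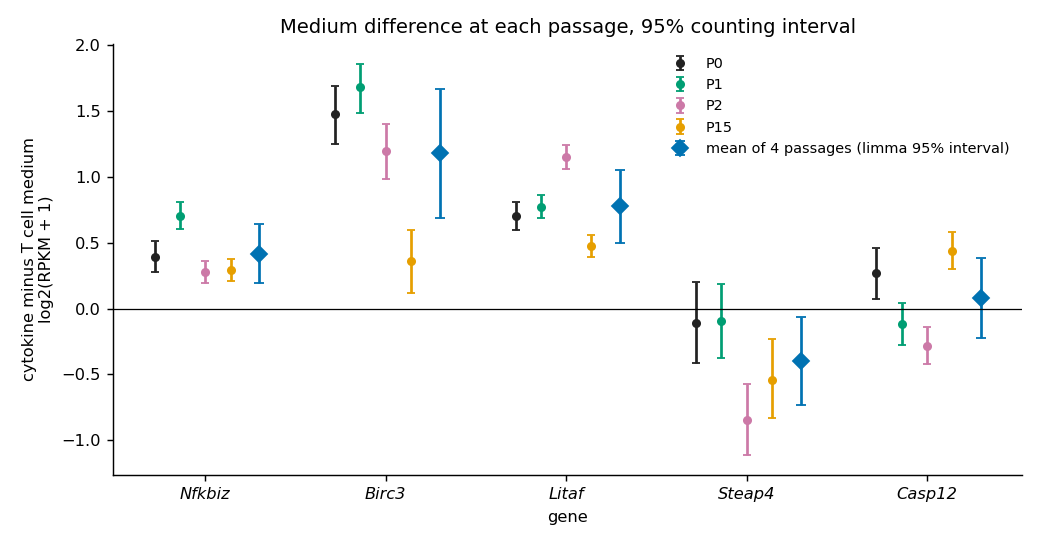
Cytokine minus T cell medium on the log2(RPKM + 1) scale (y axis) for each gene (x axis) at 4 passages with 95% counting intervals, and the limma mean over passages (diamond) with its 95% interval. Birc3 stands at 1.68 at P1 and at 0.36 at P15, and the diamonds of Birc3, Litaf and Nfkbiz at 1.18, 0.78 and 0.42 lie clear of 0. The interval of Steap4 (-0.40, -0.73 to -0.07) also lies clear of 0, but Steap4 did not pass after adjustment.

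The change of this medium difference at P15 was tested on the 4 paired differences. For Birc3 the mean difference was 1.45 over P0 to P2 and 0.36 at P15, a change of -1.10 ± 0.23 (SE) with an unadjusted p of 0.0027 and an adjusted p of 0.327 by limma. It passed under 1 of 10 alternatives, the one without the P2 libraries (-1.22). Since the filter kept Birc3 only through its cytokine libraries, which were highest at P0 to P2, this change is read as a description. For the 4 muscle differentiation markers, from a list chosen with earlier results of these data known, the medium difference changed by 2.01 to 2.67 at P15. They did not pass by limma (adjusted p = 0.0552 for each). Their sum in T cell medium was 160.3, 102.3 and 224.5 RPKM at P0, P1 and P2 and 26.5 at P15, and in cytokine medium it was 19.8 at P15. Their part in the Birc3 change was not tested. None of the 5 genes passed otherwise, against 0.0571% of rows higher and 0% lower, and 143 rows higher and 90 lower at an unadjusted p under 0.05. Values were 0.48 for Casp12 (adjusted p = 0.766), -0.40 for Litaf (0.816), -0.17 for Nfkbiz (0.923) and -0.19 for Steap4 (0.949). P15 is 1 difference without a repeat.

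Late passage was compared with early passage over both media, P15 against P0 to P2. None of the 5 genes passed, where 0.228% of rows were higher and 0.257% lower, 8 and 9 rows, or 11 and 8 after quantile normalization. At an unadjusted p under 0.05, limma gave 294 rows higher and 373 lower. The differences were 0.65 ± 0.28 (SE) for Nfkbiz (adjusted p = 0.262), 0.64 ± 0.27 for Casp12 (0.248), 0.46 ± 0.17 for Litaf (0.21), -0.44 ± 0.23 for Birc3 (0.323) and -0.43 ± 0.26 for Steap4 (0.402). With each passage given its own level, an alternative chosen after seeing the data, Nfkbiz passed at 0.65 ± 0.11 (adjusted p = 0.0445) and 46 rows were higher and 22 lower. That fit takes the spread between passages out of the residual. Its p therefore cannot tell whether P15 departs from that spread. Nfkbiz also passed without the P2 libraries, at 0.91 (adjusted p = 0.0428).

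Within a medium, passages are single libraries without a test. Nfkbiz in T cell medium was 1.03 times its P0 level at P1 (0.938 to 1.13), 2.01 times at P2 (1.85 to 2.18) and 2.17 times at P15 (2.003 to 2.36). In cytokine medium the folds were 1.29, 1.83 and 2.0. In T cell medium P0 and P1 did not differ beyond counting error and P2 and P15 were high, while in cytokine medium P1 already lay above P0 (1.20 to 1.39). Casp12 had folds over P0 of 1.49, 2.34 and 2.07 in T cell medium and of 1.10, 1.53 and 2.31 in cytokine medium. Its highest library was P2 in T cell medium and P15 in cytokine medium.

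Birc3 in cytokine medium was at 0.875 of its P0 level at P1 (0.739 to 1.04), 0.725 at P2 (0.602 to 0.872) and 0.295 at P15 (0.223 to 0.386). In T cell medium it was at 0.449 at P1 (0.259 to 0.759), 0.880 at P2 and 0.937 at P15, the last pair with intervals that include 1. Without the P15 cytokine library the late minus early difference of Birc3 turned from -0.44 to 0.10. Litaf in T cell medium was at 1.32, 1.01 and 1.76 of its P0 level and in cytokine medium at 1.39, 1.39 and 1.49. Steap4 was at 0.346 of its P0 level at P15 in cytokine medium (0.187 to 0.606), from 17 reads, and at 0.779 in T cell medium (0.524 to 1.15). Its level at P2 in T cell medium was 2.26 times that at P0 (1.66 to 3.12).

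Other genes of the same pathways were counted where their row names could be used. Of 48 genes of NF-κB signalling 6 could be tested, and 3 rose in cytokine against T cell medium and 0 fell (over all rows, 4.85% rose and 5.00% fell). The 3 that rose were Birc3, Litaf and Nfkbiz themselves. Of 35 NF-κB targets 7 could be tested, of which 4 rose and 0 fell beside the same shares of all rows. Their median of 1.18, against 0.02 over all rows, is the value of Birc3 itself. Birc3, which passed the filter only through the cytokine libraries, is in both lists. The 7 were Steap4, Litaf, Birc3, Nfkbiz, Mmp3, Mmp10 and Mmp13. The lists were chosen with earlier results of these data known, so these counts are a description. The one that rose beside Birc3, Litaf and Nfkbiz was Mmp3, the stromelysin gene (2.01, adjusted p = 0.045). It was at 1.78, 0.162, 0.0354 and 0.0736 RPKM in T cell medium and at 5.86, 8.08, 9.42 and 0.446 in cytokine medium. Mmp3 too needed its cytokine libraries to pass the filter. The media overlapped through the low P15 cytokine library, and the call ended without both P0, both P1 or both P2 libraries (adjusted p of 0.133, 0.166 and 0.125). The collagenase gene Mmp13 and the stromelysin-2 gene Mmp10, which lie in the same cluster on chromosome 9, had differences of 2.28 (adjusted p = 0.11) and 2.82 (0.0625). Both passed without the P15 libraries (3.02 and 3.64, adjusted p of 0.0425 and 0.0194). Mmp10 too needed its cytokine libraries to pass the filter. Outside cytokine medium only the P15 T cell library (10.3 RPKM) reached 1 RPKM, so the Mmp10 call is read as a description.

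Rela, the p65 subunit of NF-κB, was at 23.0 RPKM in F10 medium, 25.3 to 34.6 in T cell medium and 34.5 to 37.3 in cytokine medium. It was higher at 4 of 4 passages by 0.30 and missed the threshold (adjusted p = 0.0591), which it passed without the P15 libraries (0.37, adjusted p = 0.0369) and with the filter at 5 RPKM (adjusted p = 0.049). Il1rap, the accessory chain of the IL-1 receptor, was at 0.778 RPKM in F10 medium and differed by 0.64 between the media (adjusted p = 0.14, higher at 3 of 4 passages). It ranged from 0.649 RPKM in T cell medium to 4.05 in cytokine medium, both at P2.

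Birc2 encodes cIAP1, the close relative of cIAP2, and lies next to Birc3 on chromosome 9 at 7818227 to 7837064. It was at 5.23 RPKM in F10 medium, 4.198 to 7.98 in T cell medium and 4.33 to 5.73 in cytokine medium. Its medium difference was -0.16 ± 0.121 (SE, -0.45 to 0.13, adjusted p = 0.404), against 1.18 for Birc3. Per length Birc2 stood above Birc3 in each of the 9 libraries, by least at P1 and P0 in cytokine medium. The gene model length behind the deposited Birc2 values is 0.683 of the GENCODE exon length, so this ranking depends on the annotation. In run 1 of cytokine medium Birc2 and Birc3 had 268 and 271 reads at P0, and 285 each at P1. In the other libraries Birc2 had more reads. Nothing in the labels or files says how reads that match both genes were counted.

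Of 59 cell death genes 5 had usable names and 3 passed the filter on low values, of which 1 rose (Birc3 itself) and 0 fell (over all rows, 4.85% rose and 5.00% fell). The 2 that did not pass are the neighbours of Casp12 on chromosome 9, Casp1 and Casp4, which are inflammatory caspases and are described here after their values were seen. Casp4 was at 0 reads in F10 medium, at 0.220, 0.131, 0.555 and 0.205 RPKM in T cell medium and at 0.676, 1.03, 0.659 and 0.716 in cytokine medium. Its media did not overlap, but they lay close at P2, with 35 reads in T cell and 38 in cytokine medium in run 1 (fold 1.19). For Casp4 no test was made. Casp1 was at or below 0.104 RPKM in all 9 libraries, with at most 2 reads in run 1. Casp12, in the same gene cluster, thus reached 5.26 RPKM or more in all 8 libraries of T cell and cytokine medium, where Casp1 was near 0.

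Of 16 genes of the endoplasmic reticulum stress response 3 could be tested, Casp12 among them, and 1 rose and 0 fell (over all rows, 4.85% rose and 5.00% fell). That was Sdf2l1, an endoplasmic reticulum chaperone partner, at 13.95 to 18.3 RPKM in T cell medium and 21.4 to 28.0 in cytokine medium (0.54, adjusted p = 0.0446). The call ended after quantile normalization (0.50, adjusted p = 0.0585) and without both P0, both P1 or both P2 libraries (0.115, 0.149 and 0.123). Dnajb11, a luminal cochaperone, differed by 0.08 (adjusted p = 0.524).

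Of the 4 STEAP genes 3 could be tested, and none rose or fell between cytokine and T cell medium. Steap1 was at 20.9 RPKM in F10 medium, 47.3 to 87.4 in T cell medium and 56.9 to 95.6 in cytokine medium. Steap2, another metalloreductase of the family, was at 6.39 RPKM in F10 medium, 13.5 to 24.99 in T cell medium and 16.1 to 27.3 in cytokine medium. Both had their lowest library in F10 medium, as did Steap4, and both were many times above Steap4 per length. Their medium differences of 0.23 (adjusted p = 0.287) and 0.14 (0.407) had the opposite sign to the -0.40 of Steap4.

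**Figure D4:**
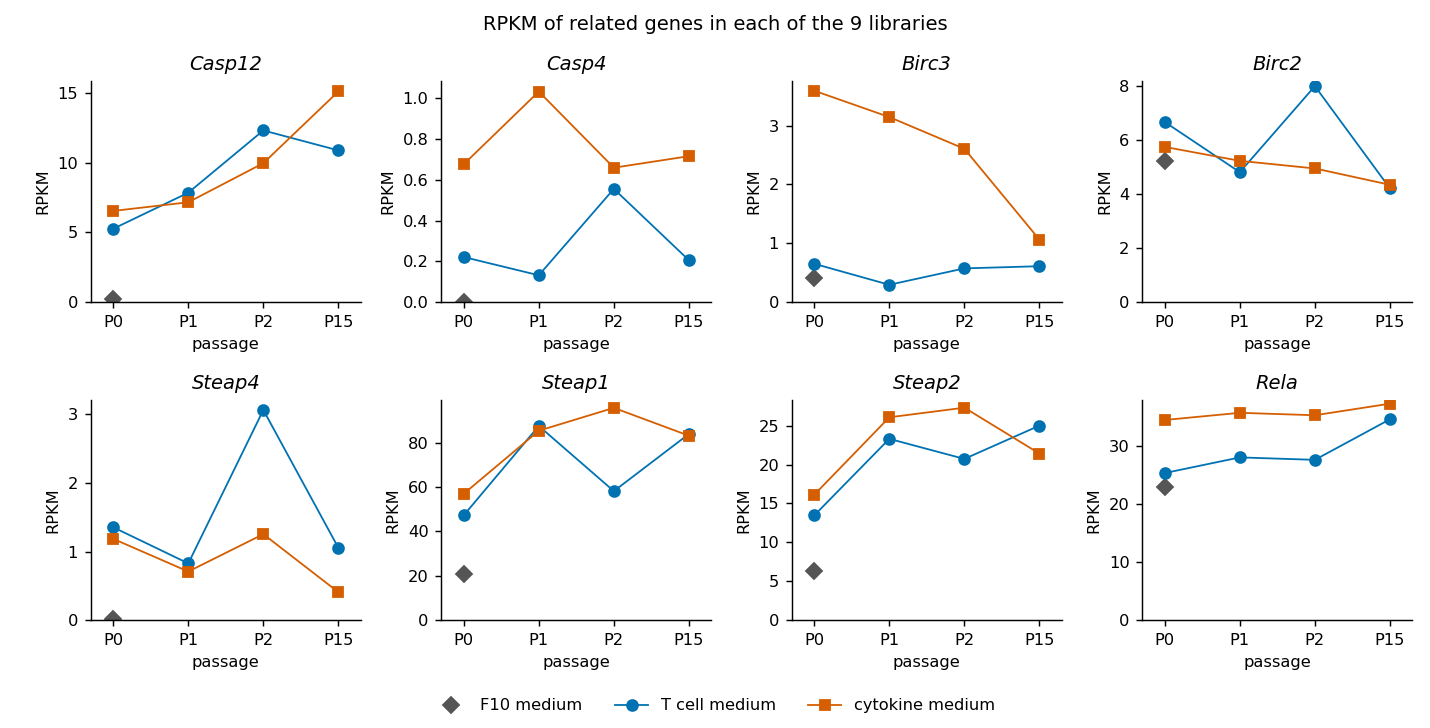
RPKM (y axis) of Casp12, Birc3 and Steap4 and of Casp4, Birc2, Steap1, Steap2 and Rela in the 9 libraries by passage (x axis, categories); points are single libraries. Birc2 stays between 4.198 and 7.98 RPKM while Birc3 ranges from 0.291 to 3.59, and Steap1 and Steap2 share with Steap4 the lowest point in F10 medium.

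The genes most like each of the 5 were sought by Pearson correlation of log2(RPKM + 1) over the 9 libraries among the 56 other genes of those 58 that passed the filter. All correlations share the same 9 libraries, among them the single F10 library, so r is a description. Nfkbiz and Casp12 were each other's nearest gene (r = 0.97), and both were followed by the interferon-inducible genes Rtp4 (0.94 and 0.94) and Parp9 (0.93 and 0.89). Birc3 was most like Ifngr2 (0.98), which encodes a chain of the IFN-γ receptor, then Mmp3 (0.92) and the replication helicase gene Mcm4 (0.89). It was least like Hes1, a target of Notch (-0.93). Litaf was most like the interferon-induced genes Batf2 (0.95), Parp14 (0.91) and Parp9 (0.90), and least like Hey1 (-0.92), also a target of Notch. Steap4 had no close counterpart, with Sema3d (0.63), Casp12 (0.59) and Tvp23a (0.55) nearest. Among the 5 genes, Litaf and Nfkbiz followed each other at r = 0.84. Birc3 had 0.63 with Litaf, 0.38 with Nfkbiz, 0.21 with Casp12 and 0.07 with Steap4. Litaf had 0.76 with Casp12 and 0.09 with Steap4, and Nfkbiz had 0.55 with Steap4.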

How the data were processed

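RNA sequencing of 9 libraries was used. The authors deposited RPKM values for 11148 genes in 18 columns, per the file headers, 2 per library. The submitters' processing notes name TopHat2 2.0.1, HTSeq 0.5.4p2 and the build mm10 and assign no step to them. No source used here gives the annotation, the strand setting or the scaling. The 2 columns, called runs here as a label only, differed by less than sampling noise, so their mean is 1 sample. The median chi-square over rows, divided by the median expected from sampling, was 0.437 to 0.483, against 2.60 to 10.7 between libraries. Low values are whole multiples of 1 read, which gave run 1 depths of 13.0 to 18.2 M reads (run 2 held 0.917 to 0.927 of that) and read numbers. For single libraries these gave 95% binomial counting intervals of folds, from the mean of both runs taken as reads at run 1 depth. Counting intervals on the log2(RPKM + 1) scale combine Poisson limits and are approximate. Identifiers were matched to GENCODE vM21 (11105 of 11148).

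RPKM are not counts, so limma 3.58.1 (R 4.3.3, trend) was run on log2(RPKM + 1), which understates changes of low genes, over 3503 rows with at least 1 RPKM in at least 2 libraries, with Benjamini-Hochberg adjustment and a threshold of 0.05. Passage was a factor in the medium comparison, since each passage pairs 1 library of each medium, and medium was a factor in the P15 comparison. P-values measure the spread over passages, since nothing says that passages are separate cultures. The exception is the fit with each passage its own level, whose residual leaves out the spread between passages. The fits were tested on simulated data with independent noise per library and no passage effect, which does not check p-values where passages differ. Since most row names go against their values, a name was used only between a chromosome's start and the farthest of 58 listed genes, those named in earlier results of these data. All 5 genes are named. Of each pathway list, up to 4 tested genes with the largest medium difference were named, and the 3 listed genes most like each of the 5 by Pearson correlation. The members and lists were chosen with earlier results of these data known. Alternatives changed the pseudocount (0.1), filter (none, or 5 RPKM), scaling, prior, run, passage and medium terms, and libraries. Of the promoter motifs planned, 1 is not reported here.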

Additional observations from a re-analysis of the deposited data

How the results depend on the processing

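With 1 library per medium and passage, single-passage folds carry counting error only. P-values rest on passages as repeats, except that the fit with each passage its own level leaves out the spread between passages. In the medium comparison the values of the 5 genes kept their direction under all alternatives except Casp12 (-0.043 without both P15 libraries, range -0.043 to 0.20 with a passage left out). Without a filter on low values 0 rows were higher and 0 lower by limma (849 and 821 at an unadjusted p under 0.05), with 11148 rows adjusted for, and the differences of Nfkbiz (0.42), Birc3 (1.18) and Litaf (0.78) no longer passed, nor did those of Mmp3 (adjusted p = 0.292), Sdf2l1 (0.265) or the 4 muscle markers (0.244 to 0.277). Quantile normalization left Nfkbiz at 0.36 (adjusted p = 0.0604) and turned Dnajb11 to -0.0063. Passage pairs the libraries of the media by label, and without this block 38 rows were higher and 26 lower, Nfkbiz (0.42, adjusted p = 0.456) and Litaf (0.78, adjusted p = 0.0761) no longer passed, and Birc3 did; Mmp3 (0.0985), Actn3 (0.091), Srl (0.102) and Myom2 (0.0808) did not. With 1 passage left out, 8 to 245 rows were higher and 1 to 302 lower, with 1.01 to 1.45 for Birc3, 0.65 to 0.88 for Litaf and 0.32 to 0.46 for Nfkbiz.

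At P15 against earlier passages, higher rows numbered 5 at a pseudocount of 0.1, 15 without a filter, 0 (and 2 lower) at 5 RPKM, 5 (and 4 lower) without the medium term, and 46 (and 22 lower, Nfkbiz 0.65) with each passage its own level. Leaving libraries out gave 0 to 23 higher and 0 to 8 lower, 0.46 to 0.91 for Nfkbiz, and -0.99 to 0.10 for Birc3, which reversed to 0.10 without the P15 cytokine library. For the test of whether the medium difference changed at P15, higher rows numbered 9 at a pseudocount of 0.1, 0 without a filter, 5 at 5 RPKM, 1 after quantile normalization, 12 with equal sums, 10 in run 1 and 6 in run 2, and 0 to 23 (0 to 3 lower) with a passage left out, with -1.22 to -0.98 for Birc3. At a pseudocount of 0.1 the P0 differences from F10 medium were larger: in T cell medium 2.58 for Nfkbiz, 0.58 for Birc3, 3.57 for Steap4 and 4.06 for Casp12, and in cytokine medium 3.00, 2.88, 3.39 and 4.37. Birc3 and Steap4 did not pass the 5 RPKM filter. The cause of these changes was not tested.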
